A study of Mus musculus with 24 samples.

Results

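Open chromatin at 36 genes of the heat shock and unfolded protein responses was compared between aged and young small intestinal epithelium of the mouse. The genes were taken from a list, and every peak that the deposited annotation names for one of them and places within 50000 bp of its transcription start was a member, which gave 175 of 150646 peaks. Of these, 44 lay within 1000 bp of a start and were treated as promoter peaks, and 131 lay farther away and were treated as distal. By this rule 34 of the 36 genes had a peak and 29 had a promoter peak. ATAC-seq, which marks accessible DNA through adapters that Tn5 transposase inserts there, was the assay. The compared groups were aged and young C57BL/6JRj mice, with 3 libraries each (aged 1, 2 and 4, and young 1, 2 and 4). The aged mice were 20 to 22 months old and the young mice 2 to 3 months old, according to the design text, which states these ages for other assays of the study. No genotype or treatment apart from age was given. Epithelial cells were freed with EDTA and trypsin, and the sort kept cells with the epithelial surface protein EpCam and without the leukocyte protein CD45. Since the labels do not say whether the libraries of an age are from different mice, p-values measure only the spread between libraries. In such bulk libraries, a change in the share of a cell type and a change in accessibility per cell cannot be told apart.

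Cells meet misfolded proteins with separate programmes for separate compartments. In the cytosol, the transcription factor HSF1 binds heat shock elements and drives chaperones of the HSP70, HSP90, HSP40 and small heat shock protein families. In the endoplasmic reticulum (ER), the sensors IRE1, PERK and ATF6 act through the factors XBP1, ATF4 and cleaved ATF6, which raise ER chaperones, folding enzymes and the machinery of ER-associated degradation, and prolonged signalling induces the factor CHOP, encoded by Ddit3. In the intestine this response is known for its part in the mucus-secreting goblet cells and the Paneth cells, whose ER handles large amounts of secreted protein.

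The ER stress response element, the site through which ATF6 acts together with the CCAAT-binding factor NF-Y, is shown first because it recurs among the ER chaperones of the list. RefSeq promoter windows (build GRCm38.p6, from 250 bases before to 50 bases after the start) were at hand for 29 of the 36 genes and were searched on both strands. Atf6, Creb3l1, Ern2, Hsf1, Hsp90aa1, Hsp90ab1 and Hspa8 had no window and were not searched. The element was searched as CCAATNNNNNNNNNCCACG, and 7 of the 29 genes held it, against 0.119% of all 32851 windows. The list was made of genes of these responses, so a higher share than in all windows was likely in advance. This holds for the other stress elements below as well, and no enrichment was tested. The matches are written 5′ to 3′ in the orientation of the element, with the fixed letters in capitals and the spacer in lower case.
Hspa5: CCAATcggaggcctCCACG
Hsp90b1, distal copy: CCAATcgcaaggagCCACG
Hsp90b1, proximal copy: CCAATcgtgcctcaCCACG
Calr: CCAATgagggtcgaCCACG
Canx: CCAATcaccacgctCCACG
Pdia6: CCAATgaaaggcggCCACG
Dnajc3: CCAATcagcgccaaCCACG
Syvn1: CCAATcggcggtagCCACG

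The copy nearest to a start was that of Syvn1, at -44 to -26 with the base before the start counted as -1, and the farthest was the distal copy of Hsp90b1 at -212 to -194. The copies of Calr and the proximal copy of Hsp90b1 lay on the strand opposite to the gene. A related element, type II, was searched as ATTGGNCCACG and was found in 0.0365% of all windows and in Herpud1 alone among the 29 genes. Herpud1 also held the core of the composite site for CHOP and ATF4, TTGCATCA, which 0.895% of windows contain. Both stand in capitals in the 250 bases before the Herpud1 start (chr8:94386179-94386428, plus strand). The 250 bases before the Hspa5 start (chr2:34771840-34772089, plus strand) are shown as the best-studied target of ATF6, with the element in capitals next to the TATA-like run.
Hspa5: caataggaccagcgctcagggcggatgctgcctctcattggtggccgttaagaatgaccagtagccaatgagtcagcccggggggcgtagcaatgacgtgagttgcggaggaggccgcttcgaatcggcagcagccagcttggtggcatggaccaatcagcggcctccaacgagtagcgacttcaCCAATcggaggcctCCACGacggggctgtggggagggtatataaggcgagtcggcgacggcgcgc
Herpud1: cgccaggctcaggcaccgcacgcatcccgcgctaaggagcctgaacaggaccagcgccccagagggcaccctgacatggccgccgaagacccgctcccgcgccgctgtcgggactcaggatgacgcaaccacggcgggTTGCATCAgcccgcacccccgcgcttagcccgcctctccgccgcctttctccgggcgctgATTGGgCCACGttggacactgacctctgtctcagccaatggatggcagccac

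The heat shock element was searched as 3 alternating units, GAANNTTCNNGAA, and was present in 0.603% of windows. No mismatch was allowed, so a gene without a match may still hold an imperfect heat shock element. Among the 29 genes it was found in the shared start region of the divergent mitochondrial chaperonin genes Hspd1 and Hspe1, as overlapping matches on opposite strands, and in Hsph1, at +36 to +48.
Hspd1 and Hspe1, first match: GAAggTTCtaGAA
Hspd1 and Hspe1, second match: GAAccTTCcgGAA
Hsph1: GAActTTCcaGAA

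No window of the 29 genes contained the unfolded protein response element TGACGTGG or the cyclic AMP response element TGACGTCA, which 0.676% and 1.79% of all windows contain. All 15 matches lay inside a peak, with those shared by Hspd1 and Hspe1 counted for each gene, and 0 overlapped a match to another motif. A peak overlaps the window of each of the 29 genes, so a place inside a peak was likely in advance. A match is a run of letters and was not a test of binding.

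Total counts in peaks ranged from 16900796 to 23935291 in the aged libraries and from 6149680 to 22819924 in the young libraries, with young 4 the shallowest. Epithelial marker promoters (9 of 11 genes with a promoter peak) summed to 883 to 911 promoter CPM in aged and 909 to 945 in young libraries. Enterocyte promoters (5 of 6 genes with a promoter peak) summed to 196 to 233 CPM in aged and 183 to 217 in young libraries. Goblet cell promoters (6 of 7 genes) summed to 68.5 to 95.9 CPM in aged and 69.9 to 88.0 in young libraries. Paneth cell promoters (only 2 of 5 genes) summed to 29.5 to 34.2 CPM in aged and 28.5 to 40.0 in young libraries. Of 10 leukocyte markers only Cd68 had a promoter peak, at 14.3 to 25.9 CPM in aged and 12.7 to 16.0 in young libraries, and Ptprc, Cd3g, Cd79a and Lyz2 had no peak. Stromal and endothelial promoters (3 of 8 genes with a promoter peak) summed to 41.5 to 42.8 CPM in aged and 40.5 to 42.8 in young libraries. Whether cell composition took part in the member values below was not tested.

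Almost all stress response genes of the list started in open chromatin at both ages. To describe each start, the peak with the highest mean CPM was taken among those that overlap the RefSeq window, carry the gene's promoter class in the annotation or lie within 1000 bp under its name. This choice was added after the data had been seen, because 7 starts are annotated under a neighbouring gene (Calr, Ddit3, Dnaja1, Dnajb9, Hsp90b1, Hspe1 and Atf6) and 3 are placed beyond 1000 bp of another start of the same gene (Hspa5, Pdia6 and Hsp90aa1). All 36 genes had such a start peak, and since Hspd1 and Hspe1 share a divergent start there were 35 peaks. Their widths ran from 292 to 1541 bp with a median of 879 bp, and their levels per length had a median of 61.5 CPM per kb. Because the highest of up to 3 peaks was taken at each start, these medians are not set against all promoter peaks. With the highest tested promoter peak under each gene's own name taken for every gene, a choice also made after the data had been seen, the 29 members had medians of 59.8 CPM per kb and 816 bp, against 26.2 CPM per kb and 569 bp for all 13858 genes. Of the 29, 22 lay above the median gene and 17 above the 75th percentile. The windows were also rich in G and C, with a median of 63.3% for the 29 genes against 52.7% for all windows.

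The most accessible starts per length were those of Pdia4, a protein disulfide isomerase of the ER (156 CPM per kb), Sel1l, the adaptor of the ER-associated degradation ligase (139 CPM per kb), and Eif2ak3, which encodes the sensor PERK (138 CPM per kb). Sel1l and Eif2ak3 do not differ beyond the spread of their libraries. The ER chaperone starts of Sdf2l1, Hsp90b1, Dnajb9 and Hspa5 followed at 113, 108, 102 and 101 CPM per kb, as did Dnajb1, an HSP40 co-chaperone, at 102 CPM per kb. Near the other end stood the stress-inducible HSP70 gene Hspa1b, the sensor gene Atf6 and the stress-inducible Hspa1a, at 27.9, 27.0 and 21.1 CPM per kb. Hspa1b and Hspa1a still lay above 59.7% and 48.3% of promoter peaks. Their promoters are near copies, and the assignment of reads that match both is not given, so these levels are uncertain. Below them came the ER-bound transcription factor gene Creb3l1 (16.7 CPM per kb) and Ern2 (8.71 CPM per kb). The lowest was Hspb1, the small heat shock protein HSP27, at 3.37 CPM per kb, above only 1.23% of promoter peaks. Its start had 1.60, 1.0 and 1.25 CPM in aged 1, 2 and 4, against 1.14, 0.891 and 1.11 CPM in young 1, 2 and 4, and the ages overlapped.

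**Figure D1:**
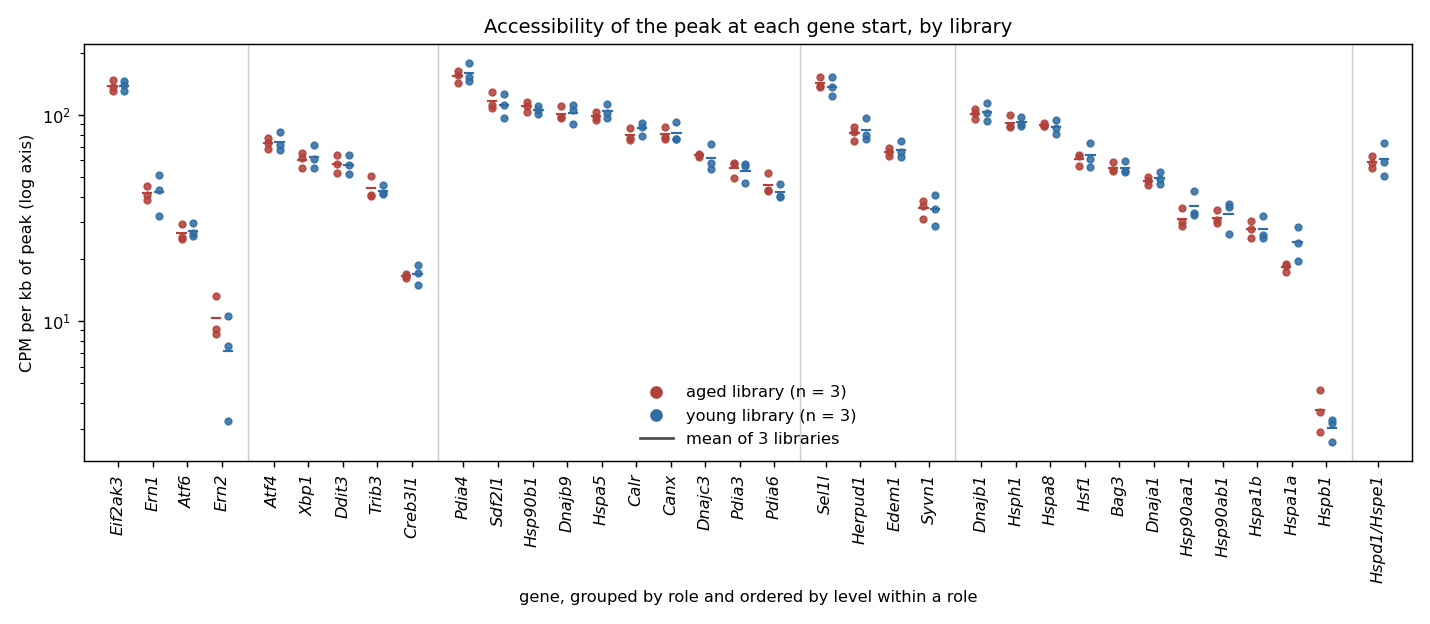
CPM per kb of the start peak of each gene in every library, aged left of young, on a log axis, with genes grouped by role and a short bar at each mean of 3 libraries. Levels span from 3.37 CPM per kb at Hspb1 to 156 CPM per kb at Pdia4, and aged and young points overlap at every gene shown except Hspa1a.

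At these starts aged and young libraries lay close together. The quasi-likelihood test of edgeR was fitted on all 129588 tested peaks, and calls needed a p below 0.05 after Benjamini-Hochberg adjustment. None of the 35 start peaks was called, 1 had an unadjusted p below 0.05 (Hspa1a, against 8.82% of all peaks), and DESeq2 called 0 (0.996% of all peaks) with 1 at an unadjusted p below 0.05. With the replicate number as a block edgeR called 1, Hspa1a (adjusted p = 0.0114), against 3.09% of all peaks. Across all tested promoter peaks 1.44% were called. Log2 fold changes, aged over young, ran from -0.43 at Hspa1a to 0.40 at Ern2, with a median of -0.017 and a median standard error (SE) of 0.11. The 95% interval of the fold change lay within 1.5-fold either way at 32 starts and within 1.25-fold at 28. Adjusted p-values of the edgeR test ran from 0.122 at Hspa1a and 0.669 at Hsp90aa1 upward. The libraries differed among themselves in ways that crossed the ages: young 1 was the highest of the 6 libraries at 22 of the 35 starts (37.2% of all promoter peaks) and young 4 the lowest at 18 (38.9% of all promoter peaks). The coefficient of variation had a median of 7.43% in aged and 10.6% in young libraries.

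**Figure D2:**
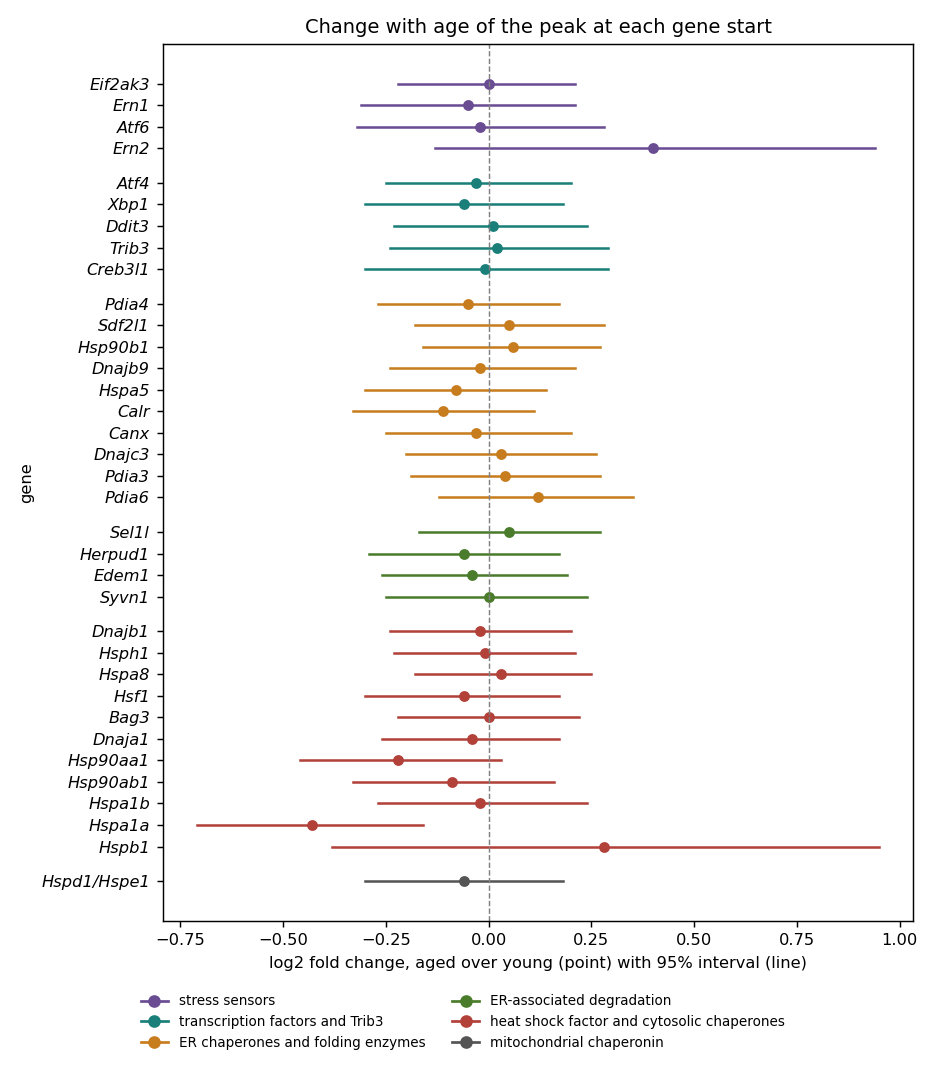
Log2 fold change, aged over young, of the start peak of each gene (points) with its 95% interval (lines), coloured by role. Every interval except that of Hspa1a spans 0, and the widest belong to the weak starts of Ern2 and Hspb1.

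Counts summed per gene over the promoter peaks that carry its name were also close between the ages. Of 29 promoters tested, 0 were called in the edgeR fit over all 13869 promoters, where 1.74% were called, and 1 had an unadjusted p below 0.05 (8.92% of all promoters). DESeq2 called 0 of the 29 (1.47% of all promoters). With the replicate number as a block edgeR called 1, Hspa1a (3.34% of all promoters). Their log2 fold changes had a median of -0.003, and those of all promoters -0.002. Ages did not overlap at 1 of the 29 (14.0% of all promoters). The 7 genes without a promoter sum are Ddit3, Hspa5, Hsp90b1, Calr, Pdia6, Dnaja1 and Hspe1. The sums of Atf6, Dnajb9 and Hsp90aa1 leave out their start peaks and hold weaker peaks.

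Among the sensors, the start of Eif2ak3 held 116, 102 and 107 CPM in aged 1, 2 and 4, against 114, 102 and 109 CPM in young 1, 2 and 4. The ages overlapped throughout, and the log2 fold change was -0.00 with a 95% interval from -0.22 to 0.21. Ern1, which encodes the ubiquitous sensor IRE1 alpha, held 40.9, 37.0 and 35.2 CPM in aged 1, 2 and 4, against 46.2, 39.0 and 29.3 CPM in young 1, 2 and 4 (log2 -0.05, SE 0.13). Here the highest and the lowest library were both young. Atf6 held 8.87, 9.03 and 10.4 CPM in aged 1, 2 and 4, against 9.47, 9.11 and 10.5 CPM in young 1, 2 and 4 (log2 -0.02, SE 0.15). Ern2, which encodes IRE1 beta, the paralogue found mainly in mucus-producing epithelia, held only 2.53, 3.84 and 2.67 CPM in aged 1, 2 and 4, against 2.20, 3.07 and 0.955 CPM in young 1, 2 and 4. The ages overlapped, young 4 was far below the rest, and the log2 fold change of 0.40 (SE 0.26) had an adjusted p of 0.773 in the edgeR test. It was 0.17 without aged 2, 0.22 without young 4 and 0.75 without young 2. A stronger peak in intron 1 of Ern2, 1469 bp inside the gene, had 9.49, 12.2 and 13.3 CPM in aged 1, 2 and 4, against 8.33, 10.5 and 10.8 CPM in young 1, 2 and 4 (log2 0.27, SE 0.15, edgeR adjusted p = 0.691). Ern1 carried 14 distal peaks, the second-largest number of the list, and 10 could be tested. Of these 8 had a log2 fold change below 0 and 0 were called. The sum over all 14 gave a log2 fold change of -0.19 (SE 0.10, edgeR adjusted p = 0.575).

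Among the transcription factors, Xbp1, whose spliced form is the product of IRE1 signalling, had a start peak at 38.0, 35.7 and 31.9 CPM in aged 1, 2 and 4, against 41.6, 35.3 and 32.2 CPM in young 1, 2 and 4 (log2 -0.06, SE 0.12). Atf4, the factor translated when PERK or its sister kinases are active, held 96.6, 91.3 and 85.1 CPM in aged 1, 2 and 4, against 103, 88.9 and 84.9 CPM in young 1, 2 and 4 (log2 -0.03, SE 0.11). Ddit3 held 61.6, 55.8 and 50.3 CPM in aged 1, 2 and 4, against 61.3, 55.0 and 49.5 CPM in young 1, 2 and 4 (log2 0.01, SE 0.11). In all of these starts libraries with the number 1 were highest at both ages. The pseudokinase gene Trib3, a target of ATF4 and CHOP, and Creb3l1 had log2 fold changes of 0.02 (SE 0.13) and -0.01 (SE 0.15) at their starts.

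The ER chaperone and folding enzyme starts, where most of the ER stress response elements shown above lie, lay near 0. Hspa5, which encodes BiP, the main HSP70 chaperone of the ER, held 87.7, 82.8 and 80.0 CPM in aged 1, 2 and 4, against 95.7, 82.1 and 86.3 CPM in young 1, 2 and 4. The highest library was young and the ages overlapped, with a log2 fold change of -0.08 and a 95% interval from -0.30 to 0.14. Dnajb9 and Dnajc3 encode J-domain partners of BiP. At its start Dnajb9 held 90.5, 79.9 and 78.8 CPM in aged 1, 2 and 4, against 91.8, 74.3 and 86.0 CPM in young 1, 2 and 4 (log2 -0.02, SE 0.11). Dnajc3 held 57.1, 57.3 and 55.4 CPM in aged 1, 2 and 4, against 64.4, 51.9 and 48.9 CPM in young 1, 2 and 4 (log2 0.03, SE 0.11). The remaining starts of this role, Hsp90b1 (GRP94), Calr (calreticulin), Canx (calnexin), the disulfide isomerases Pdia3, Pdia4 and Pdia6, and Sdf2l1, lay between -0.11 at Calr and 0.12 at Pdia6. Over the 7 starts with an ER stress response element the range was the same, -0.11 to 0.12, and 0 were called. The promoter sum of Dnajb9 under its own name is a different and weaker peak in intron 1, at 11.5, 14.8 and 13.8 promoter CPM in aged 1, 2 and 4, against 9.84, 12.5 and 7.09 promoter CPM in young 1, 2 and 4. It overlapped between the ages and was not called (log2 0.37, SE 0.21, edgeR adjusted p = 0.699).

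ER-associated degradation returns misfolded proteins to the cytosol. Herpud1, a scaffold of its ligase complex, held 71.1, 67.0 and 60.9 CPM at its start in aged 1, 2 and 4, against 78.8, 65.3 and 62.1 CPM in young 1, 2 and 4 (log2 -0.06, SE 0.11). Sel1l held 98.3, 88.2 and 88.5 CPM in aged 1, 2 and 4, against 97.9, 87.7 and 79.1 CPM in young 1, 2 and 4 (log2 0.05, SE 0.11). Both overlapped between the ages, as did Edem1, a mannosidase-like lectin (log2 -0.04), and Syvn1, the ligase HRD1 (log2 -0.00).

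In the cytosolic branch Hspa1a, an inducible HSP70 gene, had the lowest fold change of all starts. The Hspa1a start peak (chr17:34971969-34972719) held 12.9, 14.2 and 13.9 CPM in aged 1, 2 and 4, against 21.5, 18.0 and 14.7 CPM in young 1, 2 and 4. All aged libraries lay below all young ones, young 4 only just above, and the fold change was 0.741 with a 95% interval from 0.613 to 0.895. After adjustment over all peaks the difference was not called (log2 -0.43, SE 0.13, edgeR adjusted p = 0.122), nor in the promoter fit (log2 -0.41, SE 0.11, edgeR adjusted p = 0.0619, and 0.144 with DESeq2). It was called with the replicate number as a block (edgeR adjusted p = 0.0114 for the peak and 0.00903 for the promoter) and without young 4 (0.0187 for the peak and 0.0165 for the promoter). Hspa1b, its neighbour on the same strand, held 22.2, 20.0 and 24.1 CPM in aged 1, 2 and 4, against 25.6, 20.1 and 20.7 CPM in young 1, 2 and 4 (log2 -0.02, SE 0.13). The difference between these genes was not tested. Their promoters are near copies: the 250 bases before the start were identical at 247 positions and differed at 3 (98.8% identity), shown in capitals in the sequences of Hspa1a (chr17:34972157-34972406) and Hspa1b (chr17:34959239-34959488), both on the minus strand. How reads that match both were assigned is not given in the sources used here, so the counts of both are uncertain.
Hspa1a: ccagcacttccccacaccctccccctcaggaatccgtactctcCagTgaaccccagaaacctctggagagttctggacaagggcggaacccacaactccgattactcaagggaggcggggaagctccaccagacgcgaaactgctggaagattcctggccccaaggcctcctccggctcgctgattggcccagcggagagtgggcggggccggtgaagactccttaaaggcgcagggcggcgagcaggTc
Hspa1b: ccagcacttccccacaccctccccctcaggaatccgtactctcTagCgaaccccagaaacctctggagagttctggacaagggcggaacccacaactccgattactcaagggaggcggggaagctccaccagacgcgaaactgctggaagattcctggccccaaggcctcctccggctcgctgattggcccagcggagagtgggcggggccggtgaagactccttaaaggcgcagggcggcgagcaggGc

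**Figure D3:**
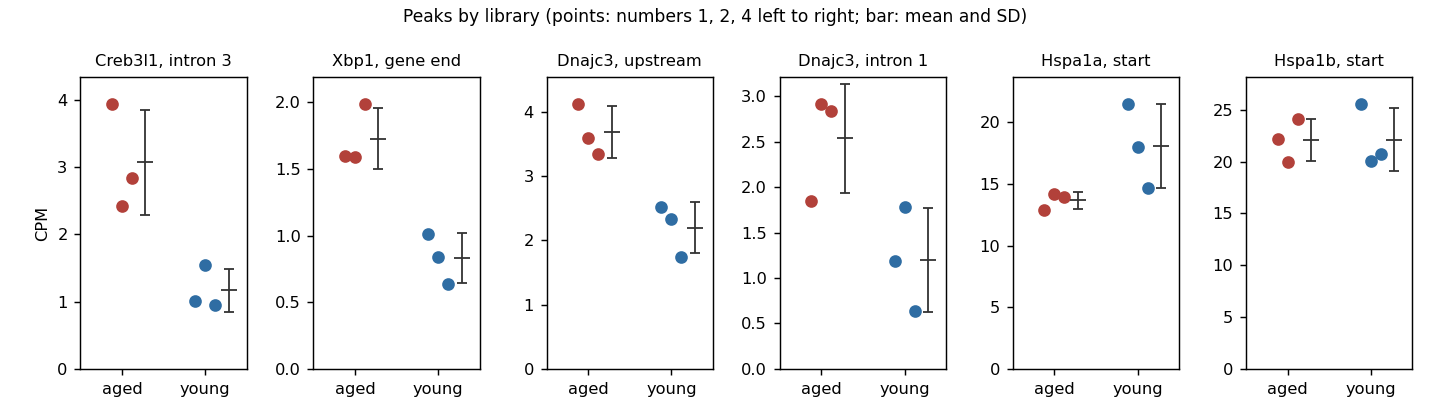
CPM of 6 single peaks in each library, aged left of young, with the mean and SD of 3 libraries beside the points. The Creb3l1, Xbp1 and Dnajc3 peaks are higher and the Hspa1a peak lower in every aged library than in any young one, whereas Hspa1b overlaps, and only the Creb3l1 peak was called.

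The rest of the cytosolic branch overlapped between the ages. Hsf1 itself held 55.4, 54.9 and 48.9 CPM at its start in aged 1, 2 and 4, against 63.6, 53.1 and 48.4 CPM in young 1, 2 and 4 (log2 -0.06, SE 0.11). Hsp90ab1, the constitutive cytosolic HSP90, held 38.9, 34.8 and 33.4 CPM in aged 1, 2 and 4, against 41.7, 40.3 and 29.8 CPM in young 1, 2 and 4 (log2 -0.09, SE 0.12). Hsp90aa1, the inducible HSP90, held 44.5, 38.1 and 36.5 CPM in aged 1, 2 and 4, against 53.8, 42.2 and 41.4 CPM in young 1, 2 and 4 (log2 -0.22, SE 0.12, edgeR adjusted p = 0.669). In Hsp90aa1 the overlap came from aged 1 alone, which lay above young 2 and young 4. The aged library was the lower one in each same-numbered pair, and with the replicate block the peak was not called (log2 -0.20, edgeR adjusted p = 0.135). The constitutive HSP70 gene Hspa8, the HSP110 gene Hsph1, the HSP40 genes Dnajb1 and Dnaja1 and the co-chaperone gene Bag3 lay between -0.04 and 0.03 on the log2 scale. The shared start of Hspd1 and Hspe1, the mitochondrial HSP60 and HSP10, held 81.4, 75.5 and 71.7 CPM in aged 1, 2 and 4, against 94.9, 76.4 and 65.4 CPM in young 1, 2 and 4. Young libraries were the highest and the lowest there (log2 -0.06, SE 0.12).

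Among the distal peaks edgeR called 1 of 111 tested (0.901%), against 1.59% of all tested peaks at these distances. The annotation places 54 of the 131 distal peaks in introns, 50 between genes, 13 at gene ends, 8 in a promoter class and 6 in exons. The distal peaks include the start peaks of Hspa5, Pdia6 and Hsp90aa1, which the annotation places beyond 1000 bp. Over all 175 member peaks 154 passed the filter on low counts, and edgeR called 1 of them (0.649%), against 1.6% of all tested peaks. The called peak was higher in aged libraries (1.07% of all peaks) and 0 were lower (0.528% of all peaks). The median log2 fold change was -0.008 for the members and -0.004 for all peaks, and the ages did not overlap at 9 member peaks (5.84%), against 13.9% of all peaks. The called peak lies in intron 3 of Creb3l1 (chr2:91995055-91995300), 29325 bp inside the gene. Creb3l1 encodes OASIS, a membrane-bound factor that is cleaved in the manner of ATF6 and is known for its part in secretory cells of bone and of the mouse colon. This peak held 3.94, 2.42 and 2.84 CPM in aged 1, 2 and 4, against 1.01, 1.54 and 0.955 CPM in young 1, 2 and 4. All aged libraries were above all young ones, and aged 1 was the highest. It was 2.49-fold higher in aged libraries (95% interval 1.68 to 3.69, log2 1.32, SE 0.28, edgeR adjusted p = 0.00519, and 0.0217 with DESeq2). Without aged 1 the log2 fold change was 1.10 and the edgeR adjusted p 0.0596, and without each other library in turn the peak was called. It is a weak peak, with 231 counts over the 6 libraries.

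None of the other Creb3l1 peaks was called. The gene had 16 distal peaks, the most in the list, of which 15 were tested, and 9 of the 15 had a log2 fold change below 0. The strongest, 15985 bp inside the gene and named after its values were seen, averaged 47.7 CPM in aged and 47.4 CPM in young libraries (log2 -0.00). A peak at -3491 bp from the start held 1.54, 1.30 and 1.02 CPM in aged 1, 2 and 4, against 0.686, 0.990 and 0.318 CPM in young 1, 2 and 4, and one in intron 1 held 0.308, 0.418 and 0.454 CPM in aged 1, 2 and 4, against 0.732, 0.891 and 0.637 CPM in young 1, 2 and 4. The ages did not overlap at either, in opposite directions, and neither was called (log2 0.77, SE 0.36, and log2 -0.96, SE 0.44, with edgeR adjusted p-values of 0.517 and 0.507).

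**Figure D4:**
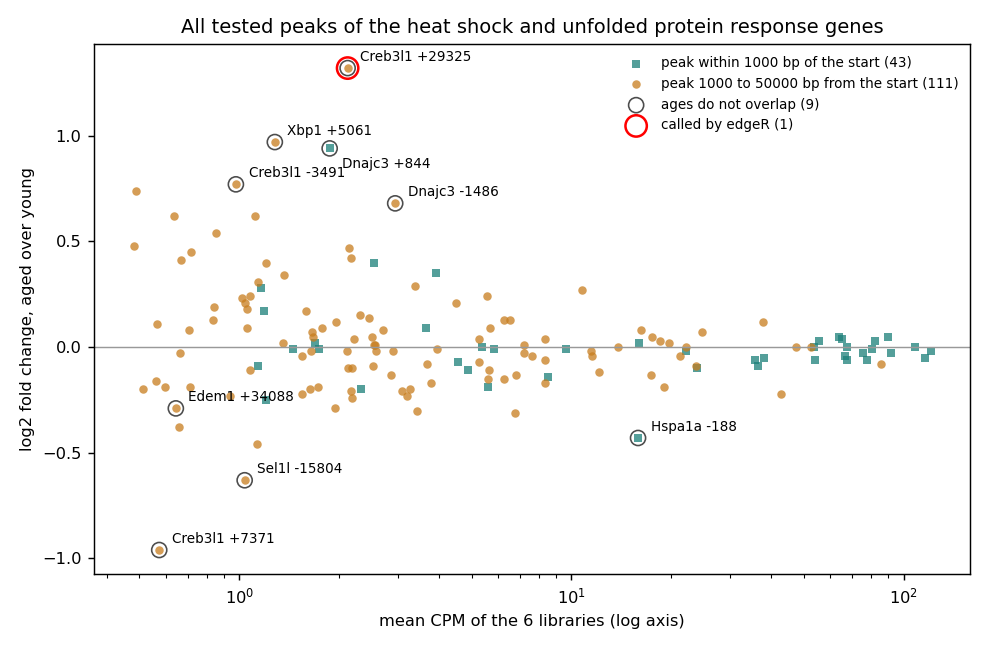
Log2 fold change, aged over young, of the 154 tested peaks against their mean CPM on a log axis, with squares for promoter and circles for distal peaks, and gene name and distance in bp from the start at the 9 peaks whose ages do not overlap. Peaks above 20 CPM lie between -0.22 and 0.12, and 8 of the 9 non-overlapping peaks have a mean below 3 CPM.

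Small peaks next to Xbp1 and Dnajc3 were also higher in every aged library, without being called. The Xbp1 peak sits at the end of the gene, 5061 bp from the start, and held 1.60, 1.59 and 1.99 CPM in aged 1, 2 and 4, against 1.01, 0.842 and 0.637 CPM in young 1, 2 and 4 (log2 0.97, SE 0.31, edgeR adjusted p = 0.154). A peak upstream of Dnajc3, at -1486 bp, held 4.13, 3.59 and 3.35 CPM in aged 1, 2 and 4, against 2.52, 2.33 and 1.75 CPM in young 1, 2 and 4 (log2 0.68, SE 0.22, edgeR adjusted p = 0.161). A second Dnajc3 peak, 844 bp from the start in intron 1 and likewise named after its values were seen, held 1.85, 2.92 and 2.84 CPM in aged 1, 2 and 4, against 1.19, 1.78 and 0.637 CPM in young 1, 2 and 4 (log2 0.94, SE 0.29, edgeR adjusted p = 0.116). These Dnajc3 peaks flank a start that overlapped between the ages. With the replicate number as a block edgeR called both Dnajc3 peaks (adjusted p = 0.0313 upstream and 0.0251 in the intron), so that 4 member peaks were called in all, against 3.09% of all peaks. All 4 tested distal peaks of Dnajc3 had a log2 fold change above 0, and the sum over all 5, 1 of them too low to test alone, gave 0.45 (SE 0.16, edgeR adjusted p = 0.218). Over the 27 genes with a tested distal sum 0 were called by edgeR and 0 by DESeq2, against 1.72% and 1.53% of all genes, and 1 gene, Dnajc3, had an unadjusted p below 0.05 (9.68% of all genes). The block called 0 of the 27 as well (4.56% of all genes). The distal sums of Hspa5, Pdia6 and Hsp90aa1 include their start peaks. Distal sums did not overlap between the ages at 3 of the 27 (11.1%, against 14.9% of all genes), with the aged libraries above.

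Among distal peaks with a log2 fold change below 0, Ern1 gave a pair in intron 1, neither of them called. The nearer one held 5.73, 6.98 and 5.28 CPM in aged 1, 2 and 4, against 6.27, 8.62 and 7.80 CPM in young 1, 2 and 4 (log2 -0.31, SE 0.17, edgeR adjusted p = 0.661), and the farther one 19.9, 17.5 and 15.7 CPM in aged 1, 2 and 4, against 20.4, 19.7 and 20.5 CPM in young 1, 2 and 4 (log2 -0.19, SE 0.12, edgeR adjusted p = 0.772). The ages overlapped in the first, and in the second only through aged 1. An intergenic peak upstream of Sel1l, at -15804 bp, held 0.616, 1.04 and 0.625 CPM in aged 1, 2 and 4, against 1.10, 1.09 and 1.75 CPM in young 1, 2 and 4 (log2 -0.63, SE 0.36, edgeR adjusted p = 0.695), without overlap.

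A longer list of 94 other genes of the same pathways gave no call at promoters either. Of 74 tested, edgeR and DESeq2 each called 0, against 1.74% and 1.47% of all promoters. At an unadjusted p below 0.05 were 9 with edgeR (8.92% of all promoters) and 7 with DESeq2 (850 of all 13869 promoters). The median log2 fold change was 0.0. The ages did not overlap at 10 (13.5%, against 14.0% of all promoters), so in overlap the list lay near the background. Cryab, a small heat shock protein known as alpha B-crystallin, had the largest difference, at 7.67, 6.50 and 8.58 promoter CPM in aged 1, 2 and 4, against 2.74, 4.47 and 3.55 promoter CPM in young 1, 2 and 4. All aged libraries were above all young ones (log2 1.08, SE 0.29, edgeR adjusted p = 0.0616). The protein disulfide isomerase gene P4hb held 351, 329 and 342 promoter CPM in aged 1, 2 and 4, against 389, 359 and 389 promoter CPM in young 1, 2 and 4 (log2 -0.15, SE 0.05, edgeR adjusted p = 0.288). The others at an unadjusted p below 0.05 went both ways. Log2 fold changes were above 0 at the HSP70 family genes Hspa2 (0.19, SE 0.08) and Hspa4l (0.15, SE 0.06), the ER-bound factor gene Creb3l3 (0.15, SE 0.06), Pdia5 (0.24, SE 0.10) and Ero1lb (0.20, SE 0.08). They were below 0 at Hspa4, also related to HSP70 (-0.14, SE 0.06), and at Vldlr (-0.35, SE 0.15). The replicate block added calls for Cryab (edgeR adjusted p = 0.0126) and Hspa2 (0.0414), and for none of the other 72 (3.34% of all promoters). At distal sums edgeR and DESeq2 each called 0 of 72, against 1.72% and 1.53% of all genes. At an unadjusted p below 0.05 were 8 with edgeR (9.68% of all genes) and 8 with DESeq2 (1742 of all 23935 genes). The block called 3 of the 72, where it called 4.56% of all genes: Eif2ak1, a kinase of the integrated stress response (log2 1.04, edgeR adjusted p = 0.0036), Creb3l3 (0.36, 0.00034) and Sec61b, a subunit of the ER translocon (0.79, 0.0318). At promoters the medians by pathway were 0.007 for 27 other ER genes, -0.037 for 15 genes of the integrated stress response, -0.02 for 25 other heat shock genes and -0.061 for 7 genes of mitochondrial proteostasis. These sums use peaks under each gene's own name and can leave out the start peak, as at Atf3.

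**Figure D5:**
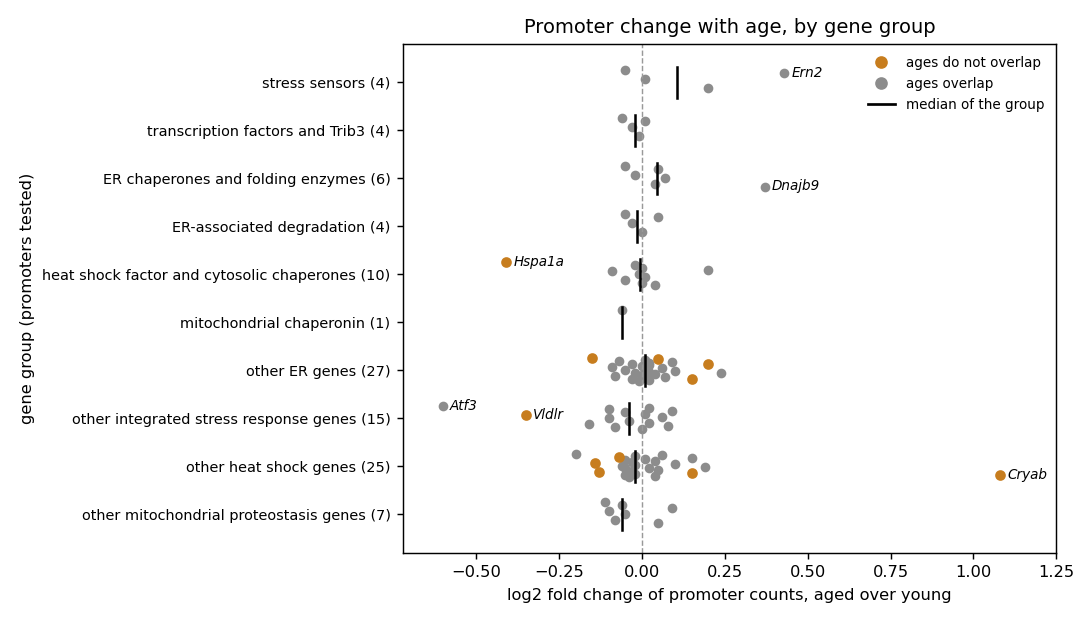
Log2 fold change, aged over young, of promoter counts for the 29 members and 74 other genes tested, by gene group, with a vertical bar at each group's median and orange points where the ages do not overlap. Most points lie near 0, and the 4 stress sensors run from -0.05 to 0.43 with a median of 0.103. Cryab at 1.08 and Atf3 at -0.60 lie the farthest out, neither of them called. The Atf3 point is a weak peak under its name, with 63 counts over the 6 libraries. The peak at its RefSeq window is stronger (mean 76.6 CPM), with a log2 fold change of -0.05.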

How the data were processed

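The authors deposited raw counts per consensus peak and an annotation of each peak with its nearest gene and distance to the start. The submitters' processing notes name Trim Galore 0.6.4, BWA 0.7.17-r1188, SAMtools 1.10, Picard 2.23.1, MACS2 2.2.7.1 and featureCounts 2.0.1 with the build GRCm38. Not given in the sources used here were peak calling settings, any shift of reads for Tn5 and the handling of reads with several matches. The distance values were used as the authors' annotation gives them (other unit, bp). The 24 records are 6 libraries on 4 lanes, and each library was 1 column and 1 replicate.

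Counts were filtered with filterByExpr, scaled by TMM and compared with edgeR 4.0.16 (glmQLFit with robust dispersions, glmQLFTest, age as the only term, R 4.3.3) over all 129588 tested peaks, 13869 promoters (counts summed per gene within 1000 bp) and 23935 distal sums (1000 to 50000 bp). Adjustment was Benjamini-Hochberg, with calls below 0.05. Each SE was computed from its F statistic, and intervals are 95%. CPM were computed with TMM-scaled library sizes, so promoter CPM and peak CPM are on different scales. DESeq2 1.42.0, other scalings, no filter, other distances, a replicate block and leaving out each library were alternatives. The test was checked on simulated counts. Count-based intervals cover the spread between these libraries only.

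Same-numbered libraries deviated together from their age's mean (r = 0.236, 0.182 and 0.123 for numbers 1, 2 and 4, against -0.194 to 0.0287 for other pairs). Deviations within an age sum to 0, so positive values for same-numbered pairs push the other pairs down. The replicate block took the numbers as pairs, whereas the main fit did not. This pairing comes from the data, since no label explains the numbers.

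The members, the other lists and the motifs were chosen with earlier results of these data known. Values are given in every library for 11 core genes, for called features, for the smallest 2 promoter p-values of each role and for the 5 distal peaks in each direction with the smallest p. Sequences are from RefSeq (GRCm38.p6).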

Additional observations from a re-analysis of the deposited data

How the results depend on the processing

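With the replicate block, edgeR called 4 member peaks in place of 1, 1 member promoter in place of 0 (Hspa1a), 2 other proteostasis promoters in place of 0, and 3998 of all peaks in place of 2077. The block changed no other count of member or other promoters or member distal sums. DESeq2 called 1291 of all peaks. A limit of 20000 bp left 0 called member peaks, since the Creb3l1 peak lies farther out. Leaving out each library in turn gave 0 to 2 called member peaks (0 without aged 1, 2 without young 4), 0 to 1 member promoters (1 without young 4), 1216 to 2084 of all peaks and medians of member promoters from -0.024 to 0.010 on the log2 scale. Member distal sums and other promoters stayed at 0 called under each library left out, the other scalings, no filter and DESeq2. Distal sums of the other genes did not. Creb3l3 was called without aged 2 (log2 0.50, edgeR adjusted p = 0.0153) and without young 1 (0.47, 0.00809). Eif2ak1 was called without the same libraries (1.19, 0.037 and 1.45, 0.00414). Hspa14, with 49 counts and no test in the main fit, was called without young 2 (log2 -2.54, edgeR adjusted p = 0.0269). The promoter fold change changed sign with 1 library left out at 15 of 29 members, 14 of them between -0.06 and 0.04 on the log2 scale and Atf6 at 0.20. Among genes given by library these were Atf6 (-0.24 to 0.44), Ern1 (-0.12 to 0.017), Eif2ak3 (-0.029 to 0.052), Hsf1 (-0.086 to 0.002), Hspa1b (-0.15 to 0.045), Hsp90aa1 (-0.12 to 0.12) and Hspd1 (-0.11 to 0.027). At Atf6 and Hsp90aa1 these sums are other, weaker peaks than the start peaks given by library above. The start peak of Hsp90aa1 kept its sign (-0.31 to -0.072). The cause of the sign changes was not tested. Using the highest peak at each start, an alternative added after the data were seen, left 0 of 35 called and a median of -0.017. The SE had a median of 0.25 for distal against 0.13 for promoter peaks of the members, and 21 member peaks were too low to test. Whether depth took part in this difference was not tested.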
